A study of Mus musculus with 17 samples.

Results

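FOXA2-negative cells that had been exposed to LDN after retinoic acid (RA) were compared with FOXA2-negative cells that had received RA alone. The members of this comparison were chosen by library title and number 6 of the 17 libraries in the series, 3 with LDN and 3 with RA. All came from R1, an established line of mouse embryonic stem cells with the genotype FOXA2-Venus, and the series concerns neural tube organoids and their floor plate, a strip of ventral midline cells. RA cells had retinoic acid for 18 hours. LDN cells had the same 18 hours of retinoic acid, then 6 hours in which nothing was added, then LDN for 8 hours. The BMP4 cells used as a reference followed the LDN timing with BMP4 in place of LDN, and the FOXA2-positive fractions of RA (3 libraries) and LDN (2 libraries) served as a second reference. For RA cells the labels give the 18 hours and nothing later, so exposure to LDN and the later hours of culture cannot be told apart in any comparison with RA. The labels do not say which compound LDN is.

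Bone morphogenetic proteins (BMPs) are secreted ligands that bind paired type I and type II receptor kinases, which phosphorylate receptor-regulated SMAD proteins. These enter the nucleus with SMAD4 and switch on a short list of immediate targets. Compounds of the LDN name are known as inhibitors of the BMP type I receptor kinases. The ID genes are among the most direct of these targets in many cell types, and their products bind basic helix-loop-helix transcription factors and keep them from binding DNA. In the neural tube, BMPs from the roof plate and surface ectoderm pattern dorsal cells, and in embryonic stem cells BMP signalling holds back neural differentiation.

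The 6 libraries held between 9118864 and 10339457 counts in genes, with 16854 to 18457 genes detected. The labels do not say whether libraries of the same group were separate cultures. The p-values below therefore reflect only the spread among libraries, which in edgeR is shared over all 17, and that spread may be technical. The FOXA2-negative label was checked with floor plate markers. Foxa2 stood at 0.418, 0.294 and 0.220 CPM (the normalised read count, scaled to library size) in RA and at 2.94, 2.62 and 0 CPM in LDN, and Shh and Ferd3l had 0 counts in all 6 libraries. Over the libraries Foxa2 had 9 counts in RA and 55 in LDN, a ratio of 5.88 with an exact 95% counting interval of 2.88 to 13.5. That interval leaves out the spread between libraries, which overlapped. In the edgeR test described below, Foxa2 had a log2 fold change of 2.52 ± 0.86 (SE, adjusted p = 0.596). It was called with no filter on low counts. Neural progenitor markers were present beside pluripotency markers. Pax6 lay between 29.0 and 43.5 CPM in RA and between 40.2 and 58.3 in LDN. Pou5f1, which encodes OCT4, lay between 47.7 and 74.1 CPM in RA and between 54.1 and 79.5 in LDN. Sox2, not taken here as a mark of 1 type alone, lay between 80.3 and 128 CPM in RA and between 89.9 and 111 in LDN. Markers within each type differed in direction. Over the libraries, Ncam1 had 5673 counts in RA and 9891 in LDN, and Cdh2 389 and 348. Nanog had 431 counts in RA and 276 in LDN, and Utf1 2703 and 2953. Of 4 endothelium and blood markers, Cdh5 and Ptprc had 0 counts, Tal1 had 5 counts in RA and 24 in LDN, and Pecam1, which pluripotent cells also express, was at 23.5, 21.7 and 14.1 CPM in RA and 10.9, 2.53 and 16.6 CPM in LDN. Their part in the results was not tested. Of 13 listed mitochondrially encoded genes 7 were measured, and mt-Co2 and mt-Co3 were among those with 0 counts in both groups. Shares of mitochondrial counts are therefore partial. RA library 1 stood apart in this share, 6.95% against 4.45% and 4.37% in the other RA libraries and 3.96% to 4.72% in LDN. The mean difference of -0.999 percentage points had a two-sided exact permutation p of 0.3, where 3 against 3 libraries cannot go below 0.1, and it was -0.154 without RA library 1.

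Of 17813 genes tested, 7 (0.0393%) passed an adjusted p of 0.05 in edgeR's quasi-likelihood test, which was fitted to all 17 libraries. Lower in LDN were 5 (0.0281%), among them the BMP targets Id1, Id2 and Id3 and the predicted noncoding gene Gm17251. Higher were 2 (0.0112%): the glucose transporter gene Slc2a1 and the microtubule-associated protein gene Map1b. At an unadjusted p under 0.05 there were 1336 genes (7.5%), 624 higher (3.5%) and 712 lower (4%), and the median log2 fold change over all genes was -0.016. DESeq2 called 39 genes, and 83 were called with no filter on low counts, all 7 among them in both cases. Leaving out the filter also changed the estimate of spread for genes with many counts, so its calls are not only of low genes. The count was 4 without RA library 3 and 11 without LDN library 1. Among 37 gene lists, those with called members included BMP-SMAD targets and glycolysis.

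**Figure D1:**
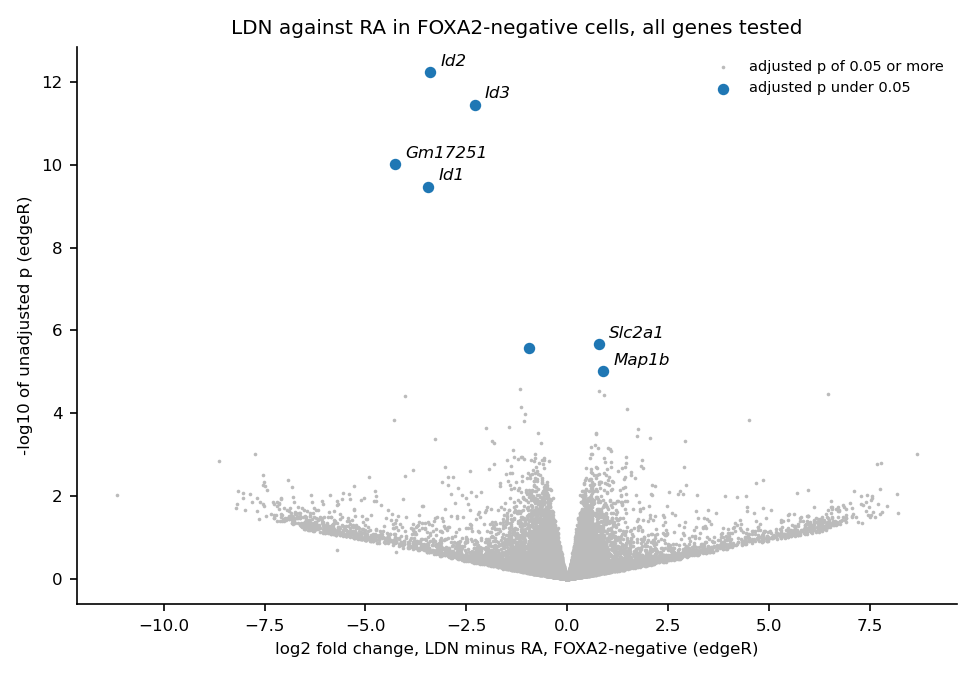
Each point is 1 of the 17813 genes tested, with the log2 fold change of LDN minus RA in FOXA2-negative cells on the horizontal axis and -log10 of the unadjusted edgeR p on the vertical axis. Blue points are the 7 genes with an adjusted p under 0.05, of which 6 are named: Id1, Id2, Id3 and Gm17251 lie to the left (lower in LDN), and Slc2a1 and Map1b to the right.

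Sequence upstream of a RefSeq start was read for the called genes where a RefSeq window was given, on GRCm38.p6, the assembly also called mm10. Windows of 300 bases were found for 5 of the 7 genes. Shown are the 3 whose window kept a long enough upstream stretch in no annotated exon: Id2, Slc2a1 and Gm17251. Id2 is the called BMP target whose window holds a SMAD motif, and Slc2a1 is a called gene of the opposite direction. The start of Gm17251 lies inside another gene. The capitals in Id2 mark GGCGCC, a GC-rich motif that SMAD proteins can bind. The Id2 stretch lies on the minus strand at chr12:25096254-25096342, inside the span of the longer annotated gene. It holds the 89 bases of its window farthest from the RefSeq start, and it ends beside an annotated exon. The Slc2a1 stretch ends at the base before the annotated gene, on the plus strand at chr4:119108495-119108710. The Gm17251 stretch lies on the plus strand at chr17:33759608-33759857.
Id2: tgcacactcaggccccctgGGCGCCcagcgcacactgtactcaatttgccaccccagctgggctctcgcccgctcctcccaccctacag
Slc2a1: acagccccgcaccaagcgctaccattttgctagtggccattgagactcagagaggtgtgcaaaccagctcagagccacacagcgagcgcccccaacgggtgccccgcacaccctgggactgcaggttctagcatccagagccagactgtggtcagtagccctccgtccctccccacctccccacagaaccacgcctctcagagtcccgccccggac
Gm17251: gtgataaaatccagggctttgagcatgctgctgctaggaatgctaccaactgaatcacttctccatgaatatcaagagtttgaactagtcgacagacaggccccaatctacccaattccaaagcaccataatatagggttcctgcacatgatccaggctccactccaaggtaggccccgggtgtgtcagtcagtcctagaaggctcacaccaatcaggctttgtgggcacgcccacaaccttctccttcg
GGCGCC, searched on both strands, occurred in the window of 1 called gene, Id2, and in 11.9% of all 32851 promoter windows of this length. The SMAD palindrome GTCTAGAC was in 0.213% of windows and in none of the 5. A direct repeat of the retinoic acid receptor half-site was in 0.00913% of windows and also in none of the 5. A match is a description of these letters and no evidence of binding.

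Id1, Id2 and Id3 fell in LDN, and these 3 ID genes had non-overlapping libraries. Id2 (ENSMUSG00000020644, chromosome 12, 25093799 to 25097140, minus strand) stood at 53.7, 28.5 and 49.95 CPM in the RA libraries and at 3.25, 3.59 and 5.69 CPM in LDN. Its lowest RA library was well above its highest LDN library. The mean went from 44.1 ± 13.6 to 4.18 ± 1.32 CPM (SD, n = 3 each). The log2 fold change was -3.39 ± 0.25 (SE), or 10.5-fold lower (adjusted p = 1.03e-08, edgeR). Id1 (ENSMUSG00000042745, chromosome 2, 152736251 to 152737410, plus strand) was at 48.9, 57.1 and 60.7 CPM in RA and at 6.71, 3.98 and 4.51 CPM in LDN. Its log2 fold change was -3.46 ± 0.32 (adjusted p = 1.49e-06). Id3 (ENSMUSG00000007872, chromosome 4, 136143497 to 136145755, plus strand) was at 97.5, 133 and 125 CPM in RA and at 30.0, 21.8 and 20.7 CPM in LDN. Its log2 fold change of -2.29 ± 0.19 (adjusted p = 3.11e-08) corresponds to a 4.91-fold lower level, and more of its transcript was left in LDN than for Id1 or Id2. Id4 was barely detected, with 0.209, 0 and 0 CPM in RA and 0, 0.486 and 0 CPM in LDN. The calls of Id1, Id2 and Id3 held in each of 12 alternative analyses, with adjusted p of at most 0.000189, 0.000857 and 0.000315.

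**Figure D2:**
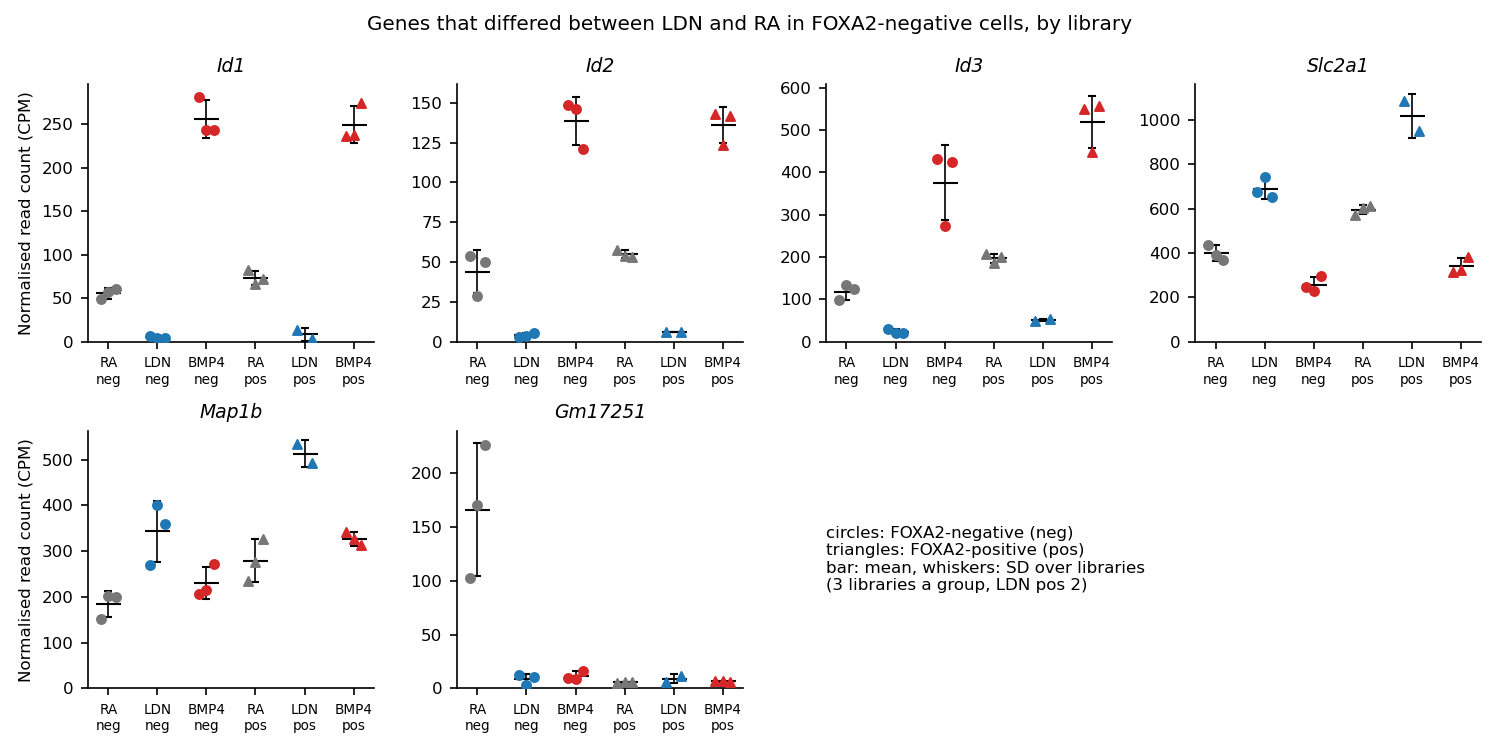
Normalised read count in CPM (vertical axes, each starting at 0) of 6 genes called between LDN and RA in FOXA2-negative cells, by group on the horizontal axes. Circles are FOXA2-negative and triangles FOXA2-positive libraries, bars are means and whiskers SD over 3 libraries (2 for FOXA2-positive LDN). Gm17251 is above 100 CPM in the RA FOXA2-negative libraries and at 16.4 CPM or less in the FOXA2-negative libraries of LDN and BMP4.

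The fixed list of 22 BMP-SMAD targets, all of which passed the filter on low counts, held 3 called members, all lower. Of the 22, 18 had negative and 4 positive log2 fold changes, with a median of -1.28 against -0.016 over all genes. The median was the same with the 3 members that had 0 counts in a whole group set to their bound. At an unadjusted p under 0.05, 13 members were lower (4% of all genes were) and 2 were higher, Smad9 and Atoh8. The libraries of LDN lay below those of RA without overlap in 10 members (6.27% of all genes) and above in 1 (6.01%). The summed level of the list was between 518 and 801 CPM in RA and between 289 and 305 CPM in LDN. Without RA library 3 the median of the list was -0.88, and in every other alternative it lay between -1.39 and -1.14.

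Beyond the ID genes no target passed the threshold over all genes in edgeR. DESeq2 also called Tbx3 (adjusted p = 0.0033) and Smad7 (0.0434), and the replicate block called Tbx3 (0.036), as did the fit without RA library 2. With no filter on low counts Tbx3, Smad7 and Msx1 were called. That fit also changed the spread of genes with many counts. The SE of Msx1 was 0.170 there against 0.307 in the main fit, and that of Slc2a1 0.1645 against 0.129. Tbx3, a T-box transcription factor, came closest, at 41.0, 27.7 and 39.1 CPM in RA and 15.8, 19.7 and 11.96 CPM in LDN (log2 fold change -1.18 ± 0.23, adjusted p = 0.056). Smad7, an inhibitory SMAD induced by BMP and TGF-beta signals as feedback, was at 12.96, 9.40 and 8.67 CPM in RA and 2.10, 2.43 and 4.22 CPM in LDN (-1.82 ± 0.46, adjusted p = 0.302). Both genes had libraries that did not overlap. Smad6, the other inhibitory SMAD, was at 2.20, 3.62 and 8.67 CPM in RA and 1.36, 1.55 and 1.96 CPM in LDN (-1.56, adjusted p = 0.647). The homeobox gene Msx1, a dorsal neural tube and neural crest factor, spread widely in RA at 124, 188 and 299 CPM against 83.9, 112 and 68.5 CPM in LDN (-1.21, adjusted p = 0.416). Its paralogue Msx2 stood at 8.15, 7.93 and 12.6 CPM in RA and 3.46, 3.98 and 3.24 CPM in LDN (-1.42, adjusted p = 0.51). Gata3, a surface ectoderm factor, was at 15.1, 14.6 and 21.1 CPM against 7.76, 9.72 and 8.63 CPM (-0.96, adjusted p = 0.619). For each of Smad6, Msx1, Msx2 and Gata3 the highest LDN library lay below the lowest RA library. Bambi, a decoy receptor, overlapped because RA library 1 held 0.941 CPM against 7.54 and 9.77 in the other RA libraries and 1.36 to 2.83 in LDN.

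Against BMP4, which had the same hours as LDN, 35 genes (0.196%) were called in FOXA2-negative cells, 13 higher (0.073%) and 22 lower (0.124%) in LDN. Id3, Id2, Id1, Tbx3 and Slc2a1 had the smallest p. Id3 was at 431, 273 and 424 CPM in the BMP4 libraries (log2 fold change of LDN minus BMP4 -3.96 ± 0.20, adjusted p = 8.91e-13). Id2 was at 149, 146 and 121 CPM (-5.05 ± 0.27, adjusted p = 1.76e-12), and Id1 at 282, 243 and 244 CPM (-5.66 ± 0.35, adjusted p = 4.92e-10). In each of the 3 genes the RA libraries lay between those of LDN and BMP4 with no overlap on either side. Tbx3 was called here at 97.9, 119 and 98.6 CPM in BMP4 (-2.73 ± 0.24, adjusted p = 6.97e-08). Of the BMP-SMAD list, 10 members were lower in LDN than in BMP4 and none higher: Id1, Id2, Id3, Tbx3, Msx1 (-2.88), Smad7 (-3.23), Gata3 (-2.33), Msx2 (-2.90), Bambi (-3.29) and Dlx5 (-2.43), and the median of the list was -2.85. The dorsal factor Pax3 (-2.56, adjusted p = 0.0098) and the AP-2 gene Tfap2a (-2.58, adjusted p = 0.00401) were lower as well. BMP4 against RA uses the same RA libraries as LDN against RA, so the values are only set side by side: Id1 was at 2.20 (adjusted p = 0.000498), Id2 at 1.65 (0.000498), Id3 at 1.67 (9.93e-06) and Tbx3 at 1.55 (0.00116) among 14 genes called there (0.0786%).

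**Figure D3:**
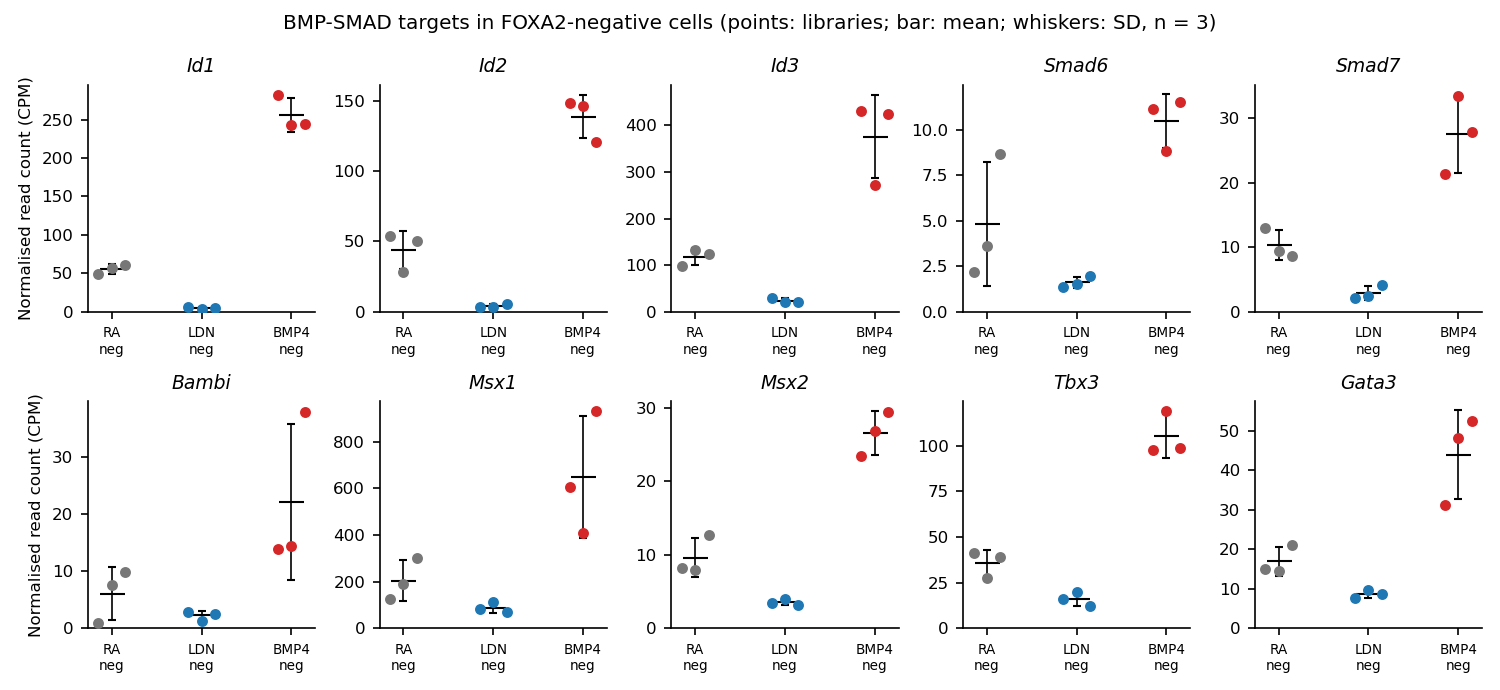
Normalised read count in CPM (vertical axes, each starting at 0) of 10 members of the BMP-SMAD list in the FOXA2-negative libraries of RA, LDN and BMP4 (horizontal axes). Points are libraries, bars means and whiskers SD (n = 3). LDN lies lowest and BMP4 highest by mean in each panel, and Bambi overlaps between RA and LDN. The 10 were picked from the 22 members by no fixed rule, so the shared order is no result about the list. Of the 22, 18 had negative and 4 positive log2 fold changes of LDN minus RA.

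The signalling machinery itself held no called gene. Of 16 listed BMP ligands, receptors and signal SMADs 13 passed the filter, 7 with positive and 6 with negative log2 fold changes, and the median was 0.11. The type I receptor gene Bmpr1a was at 53.3, 31.0 and 31.7 CPM in RA and 27.3, 23.4 and 29.6 CPM in LDN (-0.53, adjusted p = 0.647). The type II receptor gene Bmpr2 (59.0 against 47.5 CPM, -0.32, adjusted p = 0.837) and Smad4, the shared partner SMAD (55.4 against 39.9 CPM, -0.47, adjusted p = 0.66), had overlapping libraries. Bmp4, the endogenous ligand gene, was low in both groups at 1.46, 3.53 and 1.87 CPM in RA and 2.41, 17.4 and 3.63 CPM in LDN, where LDN library 2 was far above the others (1.77, adjusted p = 0.647). Among 10 measured secreted antagonists of 12 listed, 7 had negative log2 fold changes (median -0.49) and none was called. Noggin (Nog) was at 0.523, 3.04 and 5.93 CPM in RA and 1.57, 0 and 1.86 CPM in LDN.

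HOX genes encode homeobox transcription factors that set position along the body axis, and those of the low paralogue groups respond early to retinoic acid. Of the 15 HOX genes of paralogue groups 1 to 5, all measured, 13 had negative log2 fold changes and the median was -0.68. The median of LDN minus BMP4 for these 15 was -0.34, and none was called against BMP4. The summed level of the 15 was 475 to 531 CPM in RA and 327 to 372 CPM in LDN. At an unadjusted p under 0.05, 5 were lower (4% of all genes were) and none higher (3.5%). Hoxc5 went from 15.7 ± 3.30 to 6.74 ± 4.37 CPM (-1.22, adjusted p = 0.596) and Hoxb2 from 51.6 ± 4.65 to 35.4 ± 13.6 CPM (-0.54, adjusted p = 0.647). Hoxb1 was at 99.8, 139 and 185 CPM in RA and 138, 121 and 105 CPM in LDN, with overlap (-0.22, adjusted p = 0.888), and Hoxa5 was at 52.0 ± 7.41 and 50.3 ± 2.54 CPM (-0.05). Of 24 listed HOX genes of groups 6 to 13 only 14 passed the filter and none was called in edgeR, with a median of -0.71, or -0.55 with members at 0 in a whole group set to their bound. Hoxd8 was called with DESeq2 and with no filter on low counts, and Hoxc8 without LDN library 2.

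No member of the retinoic acid response list passed in edgeR, and Cyp26a1 was called with no filter on low counts. Of 20 measured members of 22 listed, 15 had negative log2 fold changes, with a median of -0.20. The median of LDN minus BMP4 for this list was 0.06. Cyp26a1, which encodes an enzyme that breaks down retinoic acid, was at 22.5, 93.8 and 82.2 CPM in RA and 19.6, 20.4 and 45.2 CPM in LDN, with RA library 1 among the LDN values (-1.22, adjusted p = 0.647). Rarb, a retinoic acid receptor gene, and Crabp2, a retinoic acid binding protein gene, had log2 fold changes of -0.46 and -0.15. Stra6, the cellular retinol importer, went the other way at 25.6, 58.3 and 32.7 CPM in RA and 67.6, 82.7 and 68.4 CPM in LDN (0.91, adjusted p = 0.596). It was called against BMP4, where it stood at 18.5, 10.3 and 23.1 CPM (2.07 ± 0.32, adjusted p = 0.00116).

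Slc2a1 rose in LDN. Slc2a1 (ENSMUSG00000028645, chromosome 4, 119108711 to 119137983, plus strand) encodes GLUT1, the glucose transporter of most proliferating cells. It was at 437, 391 and 368 CPM in RA and at 672, 742 and 653 CPM in LDN. Every LDN library lay above every RA library, and the log2 fold change was 0.79 ± 0.13 (adjusted p = 0.00767). The BMP4 libraries were lower than both, at 247, 230 and 295 CPM (LDN minus BMP4 1.42 ± 0.13, adjusted p = 1.92e-07). BMP4 minus RA was -0.63 (adjusted p = 0.0533). Of 20 listed glycolysis genes, all measured, Slc2a1 was the single member called, 16 had positive log2 fold changes, and the median was 0.23. Libraries of LDN lay above those of RA without overlap in 7 members (6.01% of all genes) and below in none (6.27%). Eno1, an enolase gene, was at 568, 784 and 627 CPM in RA and 955, 1071 and 911 CPM in LDN (0.57 ± 0.16, adjusted p = 0.416). Aldoa, an aldolase gene, was at 348, 389 and 379 CPM against 485, 510 and 500 CPM (0.42, adjusted p = 0.574). Slc2a3, which encodes the transporter GLUT3, was at 394, 370 and 335 CPM in RA and 469, 523 and 527 CPM in LDN (0.47, adjusted p = 0.464), and it was called against BMP4 (0.81 ± 0.14, adjusted p = 0.00327). The summed level of the list was 3734 to 4288 CPM in RA and 4926 to 5277 CPM in LDN. Against BMP4 the median of the list was 0.05, with 2 members called higher in LDN and 0 lower. Eno1 (0.30, adjusted p = 0.717) and Aldoa (0.16, adjusted p = 0.893) were not called against BMP4. The separate list of hypoxia targets held no call among 14 measured of 16 listed, and its median was 0.13.

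Map1b rose as well. Map1b (ENSMUSG00000052727, chromosome 13, 99421446 to 99516540, minus strand) encodes a microtubule-associated protein of growing axons. It was at 152, 201 and 200 CPM in RA and 270, 400 and 360 CPM in LDN, with no overlap (0.90 ± 0.16, adjusted p = 0.0242). In BMP4 it was at 206, 215 and 271 CPM, and the highest BMP4 library reached the lowest LDN library (LDN minus BMP4 0.57 ± 0.16, adjusted p = 0.25). Map1b was not a member of the neural lists. Of 18 measured neural progenitor genes (20 listed) none was called in edgeR (Hes5 and Ncam1 were with no filter on low counts), 10 had positive log2 fold changes and the median was 0.24 (0.41 without RA library 1, 0.13 without LDN library 3). Sox1, an early neural transcription factor, was at 20.8, 5.78 and 9.77 CPM in RA and 23.0, 39.1 and 30.7 CPM in LDN (1.35 ± 0.39, adjusted p = 0.46), and RA library 1 came close to LDN library 1. Against BMP4, where it was at 5.59, 6.77 and 4.06 CPM, Sox1 was called (2.50 ± 0.41, adjusted p = 0.00253). Ncam1, a neural cell adhesion molecule gene, was at 155, 198 and 238 CPM in RA and 297, 344 and 345 CPM in LDN (0.74, adjusted p = 0.52). The Notch effector Hes5 was at 7.004, 4.70 and 15.6 CPM against 42.3, 48.3 and 26.0 CPM (2.10 ± 0.71, adjusted p = 0.608). For Ncam1 and Hes5 the LDN libraries lay above those of RA. Sox2 (-0.01) and Pax6 (0.33) overlapped between the groups. The Notch pathway list, which shares Hes5, held no call in edgeR among 19 measured of 20 listed, with 14 positive log2 fold changes and a median of 0.56.

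**Figure D4:**
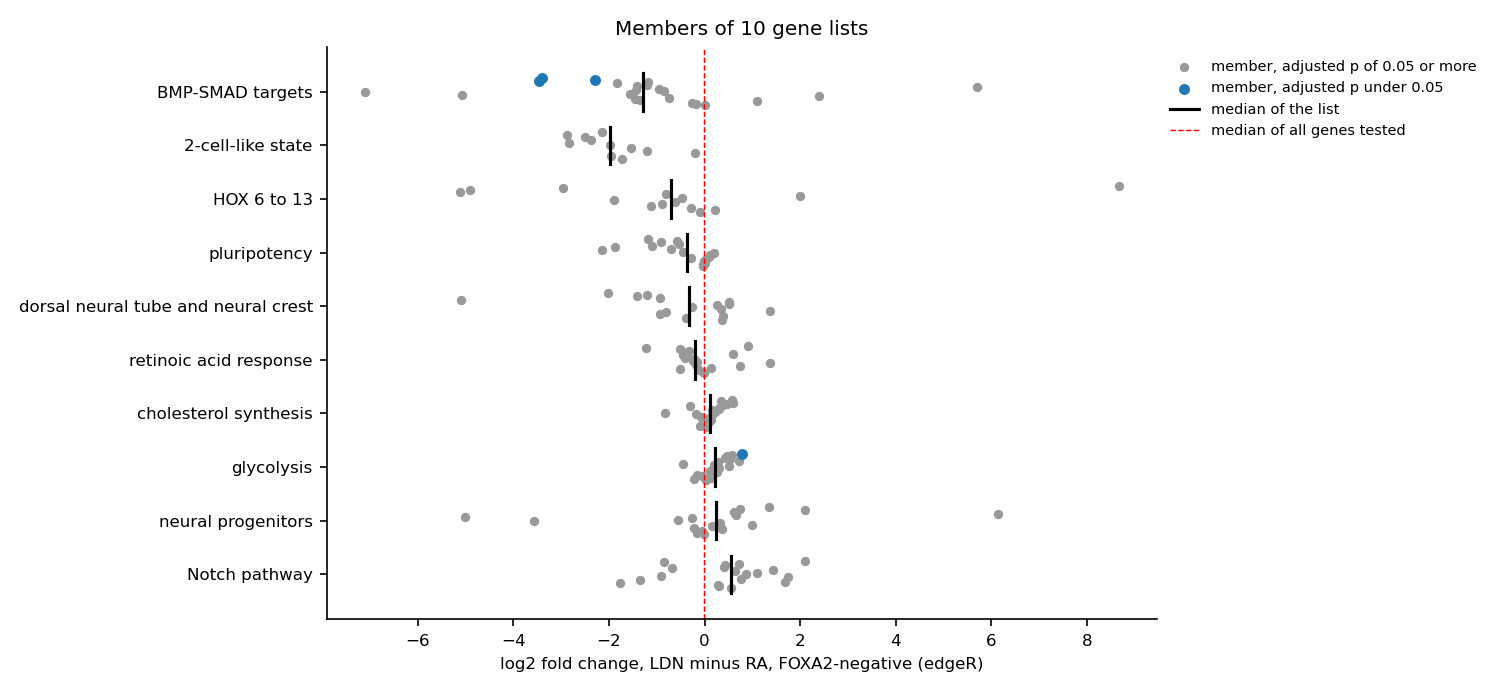
Each point is a measured member of 1 of 10 gene lists (vertical axis), placed by its log2 fold change of LDN minus RA in FOXA2-negative cells (horizontal axis). Blue points passed an adjusted p of 0.05, black bars are list medians and the dashed line is the median of all genes at -0.016. Called members are Id1, Id2 and Id3 among BMP-SMAD targets and Slc2a1 among glycolysis, and points beyond 5 in either direction include genes with 0 counts in all libraries of 1 group, whose fitted value is no bound.

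Genes that mark dorsal and surface ectoderm cells were measured for the other cell types the fraction could hold. The dorsal neural tube and neural crest list had 16 of 20 members measured and none called in edgeR, with a median of -0.33. Pax3, which is expressed in dorsal neural progenitors, was at 13.7, 5.09 and 7.14 CPM in RA and 2.31, 2.62 and 1.47 CPM in LDN (-2.01 ± 0.47, adjusted p = 0.2). It was called with DESeq2 (adjusted p = 0.0338) and with no filter on low counts (0.026). Among 15 surface ectoderm genes, all measured, none was called in edgeR, and members differed in sign. Krt18 was called with DESeq2, and Krt8, Krt18 and Tfap2a with no filter on low counts. The pluripotency list, all 18 members measured, held no call in edgeR either (Tbx3, a member, is given above), with 13 negative log2 fold changes and a median of -0.37. Among surface ectoderm genes, the keratin genes Krt8 (83.3 against 160 CPM, 0.94, adjusted p = 0.433) and Krt18 (149 against 243 CPM, 0.71, adjusted p = 0.233) were higher by mean, while Krt19 (17.3 against 6.96 CPM, -1.31, adjusted p = 0.416) and Tfap2a (58.3 against 27.4 CPM, -1.09, adjusted p = 0.622) were lower. In bulk samples such as these, fewer cells of a type and less RNA per cell cannot be told apart, and the part of cell makeup in the called genes was not tested.

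Gm17251 fell in LDN by more than any other called gene. It falls outside the rule for naming genes between groups, being a predicted gene, and was chosen for that comparison after its values were seen. Gm17251 (ENSMUSG00000090952, chromosome 17, 33759992 to 33761870, plus strand) is annotated as a bidirectional promoter lncRNA, a noncoding RNA that starts beside a gene of the opposite strand. Its start lies inside Rab11b (minus strand), a small GTPase gene of vesicle recycling, and its upstream sequence is printed above. It was at 102, 170 and 226 CPM in RA and 12.5, 3.30 and 10.2 CPM in LDN (-4.26 ± 0.40, adjusted p = 5.74e-07). The BMP4 libraries were as low as those of LDN, at 9.66, 8.82 and 16.4 CPM, with overlap (LDN minus BMP4 -0.43 ± 0.37, adjusted p = 0.899), and BMP4 minus RA was -3.83 (adjusted p = 9.49e-06). In FOXA2-positive cells it was low in RA too, at 5.20, 6.10 and 6.04 CPM. Rab11b was at a mean of 92.4 CPM in RA and 102 CPM in LDN (0.15, adjusted p = 0.923). The strand setting of the counting is not given in the sources used here, so reads of Gm17251 and Rab11b in their shared stretch cannot be told apart.

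The next genes by p lay just outside the threshold, with adjusted p of 0.056 for Tbx3, Gprc5c, Slc30a3, Commd9 and Gm5039 alike. With DESeq2 these 5 were called, at 0.0033, 0.00161, 0.00272, 0.0015 and 0.00142, and they were also called with no filter on low counts. Apart from Tbx3 they were chosen after their values were seen. Gprc5c, a retinoic acid-inducible orphan receptor gene, was at 554, 677 and 718 CPM in RA and 1158, 1191 and 1028 CPM in LDN (0.79 ± 0.16), and it was called against BMP4 (1.52, adjusted p = 1.85e-06). Commd9 was at 51.3, 68.5 and 58.7 CPM in RA and 98.9, 119 and 119 CPM in LDN (0.92 ± 0.18), and in BMP4 it was at a mean of 105 CPM. Slc30a3, a zinc transporter gene, had 1 count in RA and 125 in LDN, a depth-corrected ratio of 120 with an exact 95% counting interval of 21.2 to 4786. Its mean was 5.28 CPM in BMP4 and 4.23 CPM in LDN, with overlap (LDN minus BMP4 -0.32 ± 0.89). BMP4 minus RA was 6.79 for Slc30a3 (edgeR adjusted p = 0.0426), so its rise against RA was not particular to LDN. Gm5039 was at 41.3, 22.8 and 40.5 CPM in RA and 3.67, 2.53 and 0.196 CPM in LDN. None of these 5 had overlapping libraries, which adds no support, since genes of small p in the same test tend to be separated. Over all genes the LDN libraries lay above those of RA without overlap in 6.01% and below in 6.27%.

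Whether the change of LDN against RA differed between the FOXA2-negative and FOXA2-positive fractions was tested gene by gene as the difference of the log2 fold changes. In edgeR it passed for 1 gene (0.00561%), Gm17251, at -4.87 ± 0.57 (adjusted p = 0.000102), against 6 genes with DESeq2 and 31 with no filter on low counts, and for 1035 genes (5.81%) at an unadjusted p under 0.05. In FOXA2-positive cells 37 genes (0.208%) were called between LDN and RA. Id1, Id2 and Id3 were lower in LDN in both fractions. Id1 fell from 73.6 ± 8.26 CPM in FOXA2-positive RA cells (n = 3) to 8.56 ± 7.85 CPM in LDN (n = 2), a log2 fold change of -3.07, and the difference between fractions was -0.38 ± 0.45 (adjusted p = 1.0). For Id2 the values were 54.9 ± 2.38 and 6.18 ± 0.23 CPM (-3.15, difference -0.24 ± 0.36), and for Id3 198 ± 10.5 and 51.5 ± 2.26 CPM (-1.94, difference -0.35 ± 0.27). Slc2a1 was at 595 ± 20.95 and 1016 ± 97.6 CPM (0.77, difference 0.02 ± 0.19) and Map1b at 279 ± 46.2 and 513 ± 30.1 CPM (0.88, difference 0.02 ± 0.24). A p that misses the threshold does not show that the fractions changed alike.

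The next smallest p for a difference between fractions belonged to Ctnnbl1, Msx2, Urgcp and 2900011O08Rik, each with an adjusted p of 0.232. For Ctnnbl1, a nuclear protein gene linked to splicing, the FOXA2-negative mean was 180 CPM in RA and 184 CPM in LDN, and the FOXA2-positive mean was 240 CPM in RA and 103 CPM in LDN. Msx2 had 0 counts in the FOXA2-positive LDN libraries, against a mean of 3.56 CPM in the FOXA2-negative ones.

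The calls of Slc2a1 and Map1b depended on which libraries were fitted. With the RA and LDN FOXA2-negative groups fitted alone the adjusted p was 0.106 for Slc2a1 and 0.171 for Map1b. Slc2a1 also lost its call without RA library 2 (0.0674), RA library 3 (0.0819) and LDN library 2 (0.0664). Map1b lost its call in these 3 cases (0.0674, 0.0661 and 0.225) and without RA library 1 (0.146) and LDN library 3 (0.14). Their log2 fold changes stayed between 0.73 and 0.86 for Slc2a1 and 0.77 and 1.04 for Map1b over all 12 alternatives. Without RA library 1, which had the highest mitochondrial share, 8 genes were called, 6 of them among the 7.

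**Figure D5:**
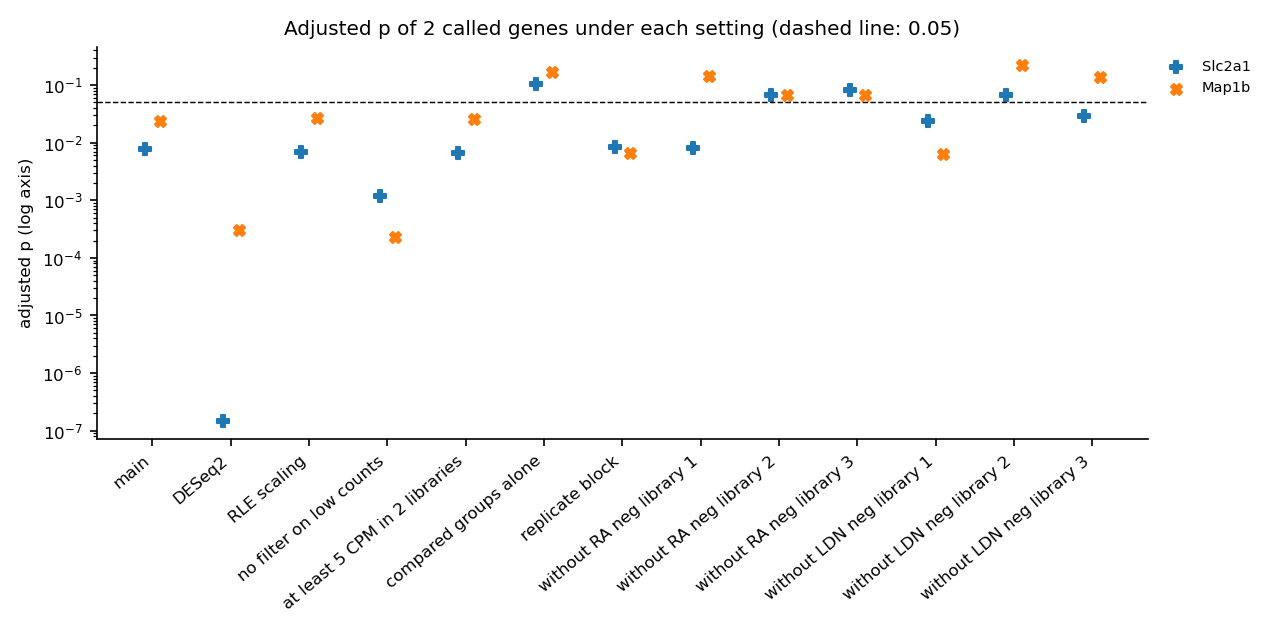
Adjusted p on a log axis (vertical) of Slc2a1 and Map1b, LDN against RA in FOXA2-negative cells, under the design used here (first column, main) and 12 alternatives (horizontal axis), with the dashed line at 0.05. Points of both genes lie above the line with the compared groups alone and without RA library 2, RA library 3 or LDN library 2, and Map1b also without RA library 1 or LDN library 3.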

How the data were processed

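SMART-Seq v2 libraries of total RNA were analysed from the raw read counts per Ensembl gene that the authors deposited, not normalised. The submitters' processing notes name the genome build mm10, HTSeq 0.11.2, UMI-tools 1.0.0, DESeq2 1.26.0 and cutadapt 1.18, with no order. The aligner, the annotation release and the strand setting were not given in the sources used here. Each table held 49671 genes and 5 summary lines. The summary lines name no gene, took 49.97% to 54.41% of the tallied reads in the 6 libraries and were left out.

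Groups were taken from library titles. Analysis used edgeR 4.0.16 in R 4.3.3. The filterByExpr function removed low genes (minimum count 10, minimum total 15), TMM scaled the libraries, and a robust quasi-likelihood model was fitted to 17 libraries in 6 groups (11 residual degrees of freedom, common biological coefficient of variation 0.632), so that groups share 1 estimate of spread. P-values were adjusted by Benjamini-Hochberg over 17813 genes, with a threshold of 0.05. On simulated counts the edgeR test called 9% of 100 genes changed 2-fold and 38% of 100 changed 4-fold, with 1 false call. Among those of at least 20 CPM it called 31% and 92.9%. A gene that was not called may therefore still have changed. Every adjusted p is from the edgeR test unless another is named. Levels are TMM-scaled CPM, and each SE is the absolute log2 fold change over the root of the F statistic. For Foxa2 and Slc30a3, which had few counts in RA, an exact 95% counting interval is given, and where it had 0 a floor of 3 counts over the group was used. Intervals and floors cover counting error only. Symbols and coordinates are from GENCODE M21 and were found for 49326 genes, and promoter windows are from RefSeq.

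Named genes were those called with a mean of at least 5 CPM and non-overlapping libraries, predicted genes left out, up to 5 by p in each test of a difference, and members of 37 gene lists, first those called and then those with the smallest p. Of the 7 called genes, 1 is counted but not reported here. The members and lists were chosen with earlier results of these data known. The list medians were recomputed under the alternatives (DESeq2 1.42.0, other scaling and filters, the compared groups alone, a replicate block, each library left out), a choice made after seeing the data.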

Additional observations from a re-analysis of the deposited data

Results flagged for a closer look

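Gm17251 was called for a change of LDN against RA that differed between the fractions, by a difference of log2 fold changes of -4.87 (FOXA2-negative minus FOXA2-positive, edgeR adjusted p = 0.000102). The RA FOXA2-negative libraries held a mean of 166 CPM, and the other 5 groups had means between 5.78 and 11.6 CPM. The difference held in 17 of 17 alternatives, between -5.30 and -4.29.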

How the results depend on the processing

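Against RA, 7 genes became 39 with DESeq2 (18 higher, 21 lower, all 7 among them) and 83 with no filter on low counts (38 higher, 45 lower, all 7 among them), and the count ranged from 4 (without RA library 3) to 11 (without LDN library 1) with a library left out. Against BMP4, 35 became 117 with DESeq2 and 141 with no filter, and ranged from 25 to 35. The difference between fractions gave 6 genes with DESeq2, 31 with no filter, 2 with the compared groups alone, and from 1 to 2 with a library left out. The mitochondrial difference ranged from -1.4408 to -0.1543 with a library left out. The cause of these shifts was not tested. No value reversed. Among recalculated values of named genes 196 kept their side of the threshold, 18 passed it and 14 lost it.

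Same-numbered LDN and RA libraries had correlations of deviations of 0.116, -0.017 and 0.0043 over 6669 genes, so the numbers were not taken as pairs, and 1 of 3 LDN libraries, number 1, correlated best with its own number. With the replicate block 9 genes were called against RA, 33 against BMP4 and 1 between fractions, and the mitochondrial difference was -0.999.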

Other observations

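Zscan4 and Usp17l genes mark a rare 2-cell-like state of embryonic stem cells. Of the 2-cell-like list 11 of 14 members were measured, none was called in edgeR, and the median log2 fold change was -1.98, or -3.28 without LDN library 1. Zscan4c was at 37.6, 67.2 and 44.9 CPM in RA and 27.98, 3.89 and 2.26 CPM in LDN (adjusted p = 0.608), and Zscan4d at 59.0, 78.3 and 76.6 CPM against 29.0, 4.08 and 4.61 CPM (adjusted p = 0.622). The LDN libraries lay below those of RA, with LDN library 1 far above the other LDN libraries, and both were called without LDN library 1. With no filter on low counts Zscan4a, Zscan4b, Zscan4c, Zscan4d, Zscan4e and Usp17lc were called. Both families consist of near copies, and the split of reads between members is uncertain.

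Some genes had 0 counts in all libraries of 1 group and at least 10 in each library of the other, and were chosen after their values were seen. Hoxd8, a posterior homeobox gene, had 0 counts in RA and 24, 49 and 85 in LDN, at least 50.7-fold higher over the group floor of 0.104 CPM (adjusted p = 0.408). St8sia2, a sialyltransferase gene that modifies NCAM, had 0 counts in RA and 15, 43 and 27 in LDN, at least 27.3-fold higher (adjusted p = 0.434). Notch4, an endothelial Notch receptor gene, had 0 counts against 33, 26 and 23, at least 26.3-fold higher (adjusted p = 0.596). Frs3os had 13, 81 and 54 counts in RA and 0 in LDN, at least 51.3-fold lower (adjusted p = 0.416). None of these 4 passed the threshold of the edgeR test over all genes, and Hoxd8, St8sia2 and Frs3os were called with DESeq2.

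Cholesterol synthesis genes, 22 of 22 measured, had 17 positive log2 fold changes, a median of 0.10 and no call.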
